A study of Mus musculus with 36 samples.

Results

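The 39 protein-coding Hox genes were chosen by symbol (Hox, a cluster letter from a to d and a number, with antisense and other non-coding transcripts left out) from the 49585 genes in each table. RNA was sequenced from mouse embryonic fibroblasts, mesenchymal cells grown out of embryos, whose Tbk1 gene carried the knock-in substitution N129D on both alleles (homozygous, hom), on 1 allele (heterozygous, het) or on neither (wild type, WT). Tbk1 encodes a kinase of innate immune signalling and selective autophagy. E1.4 with E2.2 plus E2.9 were hom, line E1.3 with lines E2.5, E2.6 plus E2.8 het, and E1.5 with E2.1 plus E2.7 WT. Each line gave 3 libraries: after 4 h of antimycin with oligomycin (AO), which block respiration and mitochondrial ATP synthesis, after 4 h of poly(I:C), which mimics viral double-stranded RNA, and without treatment. WT line E1.5 gave 6 further libraries, 1 for each treatment at high and at low density. All lines were grown in DMEM, and the labels name no other allele, transgene or agent. What the prefixes E1 and E2 stand for, the age of the embryos and the body part taken are not stated in the labels.

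Hox genes encode homeodomain transcription factors that give cells along the body axis and the limb their positional identity. Within each cluster the genes at the 3' end, which have low paralog numbers, are switched on first and nearest the head, and those at the 5' end, which have high numbers, are switched on last, towards the tail and the tip of the limb. Retinoic acid and caudal factors help to open the clusters, Polycomb and MLL complexes hold the resulting pattern, and TALE homeodomain proteins of the Pbx, Meis and Pknox families bind DNA together with Hox proteins. Cultured fibroblasts are known to keep much of the Hox pattern of the site they came from.

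The genes lie in 4 clusters of the GRCm38 genome. Cluster A has 11 genes at chr6:52155590-52260880 on the minus strand, cluster B has 10 at chr11:96194316-96368256, cluster C has 9 at chr15:102921103-103036852 and cluster D has 9 at chr2:74668310-74765142, the last 3 on the plus strand. Several overlap a neighbour in the annotation, among them Hoxc5 with Hoxc10, Hoxd3 with Hoxd4, and Hoxa3, Hoxa11, Hoxb2, Hoxb3 and Hoxb5 with antisense transcripts. No label gives the strand setting of the counting, so reads of such partners may be split or shared and their values are less certain. The 39 genes together took 32772 counts in the 30 libraries of the main experiment, between 0.00489% (line E2.9) and 0.0301% (line E1.3) of the counts of a library, averaged over the 3 libraries of a line. Library totals were 3689144 to 14879227 counts in those 30 libraries. The high-density libraries held 16474011 to 22756870 counts and the low-density ones 5391393 to 6307963.

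Promoter windows of 300 bases, 250 before to 50 after the annotated start, were read from RefSeq on GRCm38.p6 and matched 22 of the 39 genes. The windows of Hoxd13, the most abundant Hox transcript here, and of Hoxd12 and Hoxa10, which responded to treatment as described further on, are printed 5' to 3' on the strand of the gene. Capitals mark the TATA box letters TATAAA, the GC box letters GGGCGG and the CCAAT box letters CCAAT, each on either strand. Hoxa10 has 2 annotated starts, and the first of its windows was the one counted.
Hoxd13 at chr2:74667975-74668274 (+): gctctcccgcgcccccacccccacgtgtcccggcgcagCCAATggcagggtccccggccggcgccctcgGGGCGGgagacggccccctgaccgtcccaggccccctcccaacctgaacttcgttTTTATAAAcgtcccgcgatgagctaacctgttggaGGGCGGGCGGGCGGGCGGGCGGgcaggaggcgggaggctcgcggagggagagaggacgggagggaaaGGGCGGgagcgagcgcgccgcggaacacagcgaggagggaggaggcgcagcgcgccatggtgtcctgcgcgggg
Hoxd12 at chr2:74674763-74675062 (+): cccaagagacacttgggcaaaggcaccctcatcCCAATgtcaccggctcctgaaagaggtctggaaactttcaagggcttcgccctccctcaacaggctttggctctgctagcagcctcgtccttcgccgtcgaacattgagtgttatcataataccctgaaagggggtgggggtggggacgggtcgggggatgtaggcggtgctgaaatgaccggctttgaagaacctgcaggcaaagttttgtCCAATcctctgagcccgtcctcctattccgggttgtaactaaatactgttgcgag
Hoxa10 at chr6:52240805-52241104 (-): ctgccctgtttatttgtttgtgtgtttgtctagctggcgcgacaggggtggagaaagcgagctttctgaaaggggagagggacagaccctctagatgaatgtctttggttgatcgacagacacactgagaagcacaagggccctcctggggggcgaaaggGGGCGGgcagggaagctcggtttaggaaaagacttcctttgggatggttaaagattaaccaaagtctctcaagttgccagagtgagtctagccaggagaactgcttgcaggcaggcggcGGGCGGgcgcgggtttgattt
Hoxa10 at chr6:52234890-52235189 (-): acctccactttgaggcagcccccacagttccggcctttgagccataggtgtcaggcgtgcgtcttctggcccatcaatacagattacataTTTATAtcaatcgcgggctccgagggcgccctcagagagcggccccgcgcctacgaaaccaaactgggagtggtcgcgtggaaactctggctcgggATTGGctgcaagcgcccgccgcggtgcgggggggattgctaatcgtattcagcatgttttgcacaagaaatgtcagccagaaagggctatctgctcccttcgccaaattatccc
The Hoxd13 window held 37 CG dinucleotides and was 74.3% G or C, the Hoxd12 window 13 and 55.0%, and the first Hoxa10 window 12 and 54.3%. Over the 22 Hox windows the CG count ran from 4 to 45 with a median of 13.5, against a median of 7 over all 32851 windows of the table. TATAAA stood in 3 of the 22 Hox windows (13.6%), against 13.6% of all windows. GGGCGG stood in 9 (40.9%), against 35.7% of all windows. CCAAT stood in 14 (63.6%), against 37.4% of all windows. A HOX-PBX motif, TGATTNAT, was found in 1 Hox window (4.55%, Hoxa2), against 3.22% of all windows, and a HOX13 motif, TTTTATNG, in 2 (9.09%, Hoxb8 and Hoxd4), against 4.14%. The ATF4-CEBP motif TGATGNAA and the interferon response motif were in 0 of the 22, against 3.97% and 3.44% of all windows. All motifs were searched on both strands and describe these letters only.

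Hoxd13, at the 5' end of cluster D, had the highest level of the 39 genes. Counts were scaled to library size (CPM, with TMM factors) and, to compare genes, divided by exon length (CPM per kb). Averaged over the 30 libraries, Hoxd13 had 20.9 CPM per kb, Hoxb9 6.66, Hoxa11 2.91, Hoxa10 2.68, Hoxa5 2.1, Hoxa7 2.09 and Hoxd10 2.03. In cluster C the highest were Hoxc6 with 1.19 and Hoxc8 with 0.907 CPM per kb. From the second gene down, neighbours in this order overlapped widely between libraries. The lowest were Hoxb1 with 2 counts in all 30 libraries, Hoxc12 with 5, Hoxb13 with 7, Hoxd1 with 15, Hoxc11 with 24 and Hoxd3 with 33. Line means passed 1 CPM in all 10 lines for 9 genes and in no line for another 9.

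**Figure D1:**
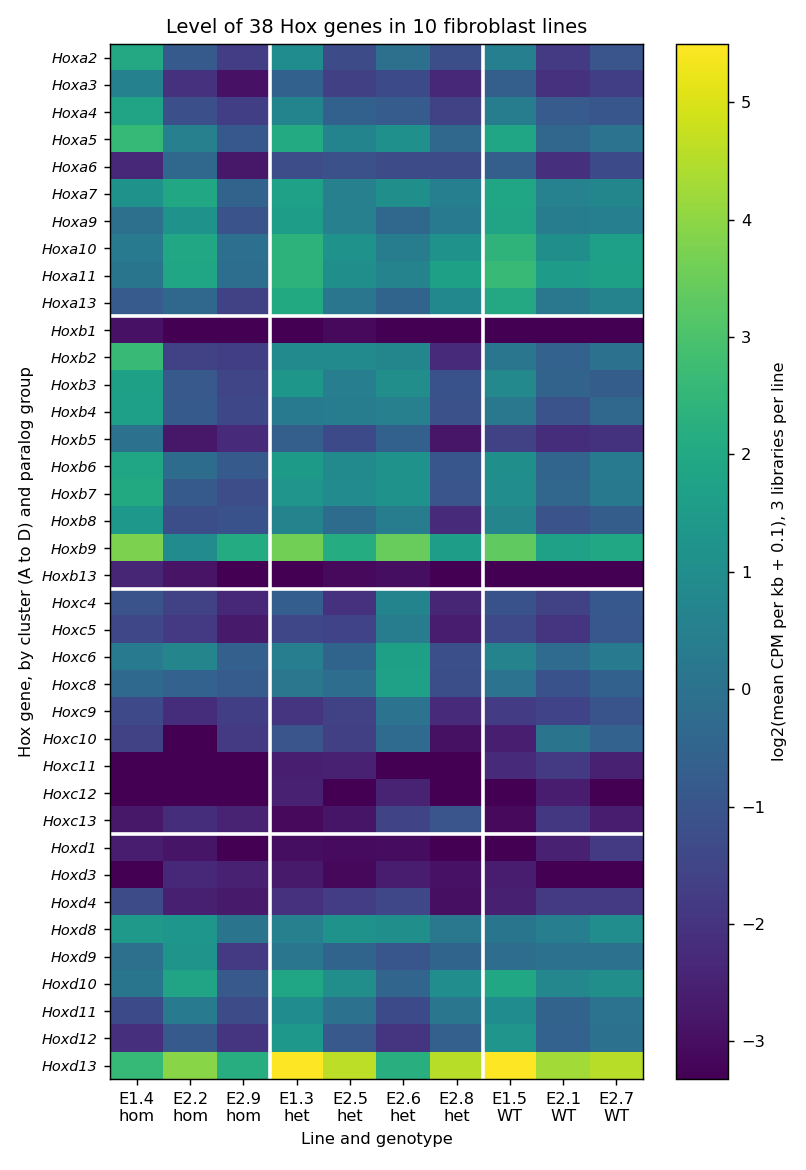
Level of 38 Hox genes (rows, by cluster and paralog number) in the 10 lines (columns, hom, het and WT), as log2 of the mean CPM per kb of the 3 libraries of a line plus 0.1. Hoxd13 is the brightest row in every line but E1.4 and E2.6, where Hoxb9 is above it.

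The summed Hox level and its make-up differed from line to line within each genotype. The sum over the 39 genes ran from 18.6 CPM per kb in hom line E2.9 to 113 in het line E1.3, with WT line E1.5 at 107 and a median line at 53.8. Paralog groups 9 to 13 held 35.4% of the sum in hom line E1.4 and 44.3% in het line E2.6, against 67.1% to 84.8% in the other 8 lines. Cluster B made up 50.8% of the sum in E1.4 and 42.4% in E2.6, against 9.75% to 33.8% in the other lines. Cluster C made up 20.8% in E2.6 and at most 8.96% elsewhere. Hoxd13 alone was 8.04% of the sum in E1.4, 8.88% in E2.6 and 51.0% in het line E2.8, with a median of 40.9%. E1.4 and E2.6, the lines with the smallest share of groups 9 to 13, are of different genotypes.

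**Figure D2:**
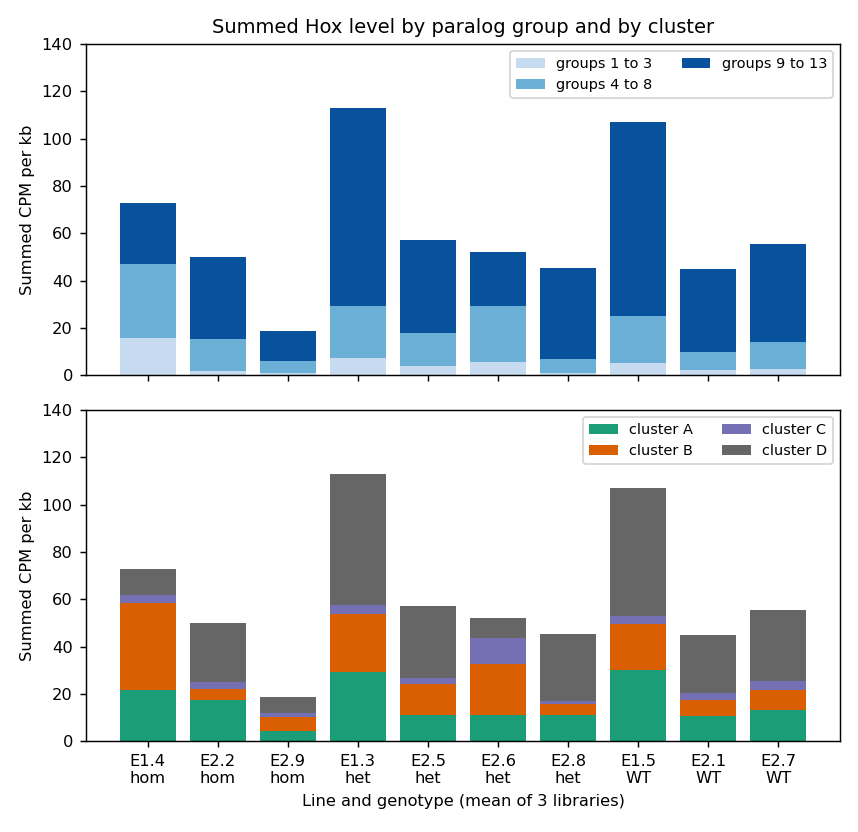
Summed CPM per kb of the 39 Hox genes in each line (mean of 3 libraries), stacked by paralog group in the upper panel and by cluster in the lower one. Lines E1.3 and E1.5 reach 113 and 107, E2.9 reaches 18.6, and E1.4 and E2.6 have the smallest shares of groups 9 to 13.

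Markers of the labelled cell type were present throughout: the summed level of 10 fibroblast markers was 8259 to 18652 CPM over the 30 libraries. Line E2.9 and, less so, E2.6 also carried macrophage transcripts: 10 macrophage markers summed to 128 to 220 CPM in E2.9 and 31.7 to 49.0 CPM in E2.6, against 2.59 to 9.76 CPM in the other 8 lines. Lyz2 averaged 73.6 CPM in E2.9 and 14.1 CPM in E2.6, and Ptprc 7.9 and 1.8 CPM. The part of the macrophage transcripts in the Hox levels of E2.9 and E2.6 was not tested. Markers of other cell types also differed between lines of a genotype, in an edgeR test described further on that most genes passed. Among them were the epithelial marker Krt8 (adjusted p = 1.94e-13), the smooth muscle marker Des (adjusted p = 6.42e-13) and the neural marker Sox2 (adjusted p = 1.02e-09). Their part in the Hox levels was not tested either. In such bulk samples, fewer cells of a type and less RNA per cell cannot be told apart.

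The genes named here were the 2 most abundant of each cluster, the 5' genes with the widest range between lines, Hoxc10, which was absent from 1 line and above 1 CPM in others, and those that passed a test. In the value sentences lines of a genotype are in the order of their names: E1.4, E2.2, E2.9 for hom, E1.3, then E2.5, E2.6, E2.8 for het, and E1.5, then E2.1, E2.7 for WT.

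Hoxd13 acts in the digits and the external genitalia and is the last gene of cluster D. Under AO, Hoxd13 was at 11, 33.8 and 10.2 CPM in the hom lines, 105, 45.8, 12.9 and 47.3 CPM in the het lines and 91.8, 39 and 45.6 CPM in the WT lines. Hoxd13 with poly(I:C) was at 15.3, 34.1 and 9.49 CPM in the hom lines, 129.9, 82.3, 11.2 and 64.1 CPM in the het lines and 135, 58.3 and 72.5 CPM in the WT lines. Without treatment, Hoxd13 was at 17.4, 44.8 and 13.1 CPM in the hom lines, 101, 52.8, 9.36 and 60.7 CPM in the het lines and 101, 46.9 and 55 CPM in the WT lines. Het E1.3 and WT E1.5 were high, hom E1.4, hom E2.9 and het E2.6 were low, and the 3 hom lines lay below the 3 WT lines under each treatment. As line means, 112 ± 15.8 CPM in E1.3 and 109 ± 22.8 CPM in E1.5 did not differ beyond their spread (SD, n = 3 libraries). The 3 lowest lines, E1.4, E2.9 and E2.6, averaged 14.6 ± 3.26, 10.9 ± 1.91 and 11.1 ± 1.76 CPM, and their libraries overlapped.

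Hoxd12, its neighbour, also acts in the distal limb. Hoxd12 under AO measured 0.239, 0.524 and 0 CPM in the hom lines, 3.13, 0.156, 0.148 and 0.457 CPM in the het lines and 2.5, 0.681 and 1.4 CPM in the WT lines. Its poly(I:C) values were 0.258, 0.474 and 0.527 CPM in the hom lines, 6.45, 0.692, 0.162 and 0.937 CPM in the het lines and 5.04, 1.58 and 2.45 CPM in the WT lines. Hoxd12 without treatment measured 0.483, 2.56 and 0.641 CPM in the hom lines, 9.23, 2.56, 0.84 and 2.77 CPM in the het lines and 10.05, 2.15 and 2.77 CPM in the WT lines. Het E1.3 and WT E1.5 were again the highest. The hom and WT lines overlapped without treatment and did not overlap under AO or poly(I:C), with the hom lines lower. The hom values under AO and poly(I:C) were a few counts each at most, near the limit of detection.

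Hoxa13 shares with Hoxd13 the patterning of hand and foot. AO-treated cells had Hoxa13 at 0, 0.785 and 0.188 CPM in the hom lines, 7.18, 0.936, 1.04 and 2.28 CPM in the het lines and 3.84, 1.43 and 3.95 CPM in the WT lines. Hoxa13 values with poly(I:C) were 1.93, 1.66 and 0.527 CPM in the hom lines, 10.6, 4.27, 1.79 and 4.31 CPM in the het lines and 10.5, 2.96 and 2.67 CPM in the WT lines. Untreated cells had Hoxa13 at 1.57, 2.69 and 1.03 CPM in the hom lines, 11.7, 2.19, 1.8 and 5.41 CPM in the het lines and 14.7, 3.44 and 4.05 CPM in the WT lines. The order of lines was close to that of Hoxd13: by line means E1.3 and E1.5 were highest and E2.9 lowest, and each hom line lay below each WT line under every treatment.

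Hoxd11 patterns the forearm together with Hoxa11. Levels of Hoxd11 under AO were 0.958, 3.14 and 0.94 CPM in the hom lines, 4.87, 2.34, 1.33 and 2.74 CPM in the het lines and 3.84, 1.5 and 3.31 CPM in the WT lines. After poly(I:C) it was at 1.42, 4.98 and 1.23 CPM in the hom lines, 6.58, 3.92, 0.974 and 5.25 CPM in the het lines and 9.04, 2.76 and 3.56 CPM in the WT lines. Levels of Hoxd11 without treatment were 1.33, 6.14 and 1.67 CPM in the hom lines, 12.1, 4.75, 1.44 and 4.62 CPM in the het lines and 10.4, 3.3 and 4.9 CPM in the WT lines. The 3 low lines were hom E1.4, hom E2.9 and het E2.6, and the line mean of hom E2.2 lay within the range of the WT line means.

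Hoxd10 acts in the limb and the lumbosacral region. Under AO, Hoxd10 was at 1.68, 4.71 and 0 CPM in the hom lines, 4.63, 2.18, 0.592 and 1.83 CPM in the het lines and 4.61, 1.77 and 2.67 CPM in the WT lines. Hoxd10 with poly(I:C) was at 1.42, 6.4 and 1.41 CPM in the hom lines, 6.86, 3.92, 1.46 and 4.12 CPM in the het lines and 6.97, 2.96 and 3.56 CPM in the WT lines. Without treatment, Hoxd10 was at 2.17, 7.68 and 1.03 CPM in the hom lines, 8.02, 4.39, 1.44 and 4.35 CPM in the het lines and 9.4, 4.02 and 4.26 CPM in the WT lines. Hom line E2.2 was near the highest lines E1.5 and E1.3, so the hom and WT groups overlapped.

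Hoxd9, the next gene towards the 3' end, had another order of lines. Hoxd9 under AO measured 1.92, 3.66 and 0.188 CPM in the hom lines, 2.43, 1.09, 0.74 and 0.913 CPM in the het lines and 1.92, 1.36 and 1.27 CPM in the WT lines. Its poly(I:C) values were 2.06, 4.74 and 0.351 CPM in the hom lines, 1.92, 1.04, 0.974 and 1.5 CPM in the het lines and 1.16, 2.96 and 2.002 CPM in the WT lines. Hoxd9 without treatment measured 1.45, 6.14 and 0.641 CPM in the hom lines, 2.12, 1.83, 0.96 and 1.58 CPM in the het lines and 1.94, 1.44 and 2.56 CPM in the WT lines. Hom E2.2 was the highest line and hom E2.9 the lowest, so that the 2 ends of the range belonged to 1 genotype.

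Hoxa11 acts in the forearm, the shank and the kidney. AO-treated cells had Hoxa11 at 1.44, 4.97 and 1.5 CPM in the hom lines, 8.34, 4.05, 2.07 and 4.72 CPM in the het lines and 7.68, 3.41 and 4.97 CPM in the WT lines. Hoxa11 values with poly(I:C) were 1.8, 10.4 and 1.58 CPM in the hom lines, 12.2, 3.34, 3.25 and 6.93 CPM in the het lines and 18.1, 8.49 and 7.34 CPM in the WT lines. Untreated cells had Hoxa11 at 3.5, 8.83 and 2.44 CPM in the hom lines, 14.4, 6.4, 4.44 and 9.63 CPM in the het lines and 17, 7.18 and 8.95 CPM in the WT lines. WT E1.5 and het E1.3 were highest, hom E2.9 was lowest by its line mean, and the genotypes overlapped.

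Hoxa10 acts in the hindlimb, the lumbar vertebrae and the uterus. Levels of Hoxa10 under AO were 2.39, 7.07 and 1.32 CPM in the hom lines, 10.1, 4.21, 1.92 and 3.35 CPM in the het lines and 8.65, 3.41 and 7.26 CPM in the WT lines. After poly(I:C) it was at 3.61, 13.7 and 3.34 CPM in the hom lines, 16.6, 4.84, 5.03 and 5.81 CPM in the het lines and 22.1, 7.31 and 9.12 CPM in the WT lines. Levels of Hoxa10 without treatment were 5.31, 16.1 and 3.46 CPM in the hom lines, 23.6, 11.9, 5.16 and 12.5 CPM in the het lines and 20.4, 9.04 and 13.9 CPM in the WT lines. Every line had less Hoxa10 under AO than without treatment, and the genotypes overlapped.

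Hoxa9, best known in blood cell precursors, showed the same 2 lines at the top. Under AO, Hoxa9 was at 5.98, 9.69 and 1.88 CPM in the hom lines, 13.4, 4.83, 3.85 and 5.63 CPM in the het lines and 15.9, 6.06 and 5.6 CPM in the WT lines. Hoxa9 with poly(I:C) was at 4.51, 11.4 and 1.58 CPM in the hom lines, 16.7, 6.23, 2.92 and 4.5 CPM in the het lines and 17.8, 5.92 and 8.01 CPM in the WT lines. Without treatment, Hoxa9 was at 3.62, 15.7 and 2.82 CPM in the hom lines, 18.2, 11.3, 4.32 and 8.31 CPM in the het lines and 23.3, 8.76 and 8.1 CPM in the WT lines. Hom E2.9 was lowest by its line mean and hom E2.2 came next after E1.5 and E1.3.

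Hoxb9 patterns the thoracic skeleton and was the most abundant gene of cluster B. Hoxb9 under AO measured 34.2, 7.85 and 14.1 CPM in the hom lines, 38.5, 14.2, 36.6 and 10.3 CPM in the het lines and 25.7, 10.9 and 12.9 CPM in the WT lines. Its poly(I:C) values were 33.5, 3.08 and 9.66 CPM in the hom lines, 30.3, 10.5, 21.4 and 5.81 CPM in the het lines and 22, 7.5 and 8.23 CPM in the WT lines. Hoxb9 without treatment measured 36.2, 3.2 and 8.34 CPM in the hom lines, 25.3, 8.77, 24.8 and 6.07 CPM in the het lines and 29.8, 6.46 and 7.67 CPM in the WT lines. The 4 lines E1.4, E1.3, E2.6 and E1.5 stood above the other 6 under each treatment, and these 4 include every genotype.

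Hoxc10, a gene of the lumbar and hindlimb level, was close to the limit of detection. AO-treated cells had Hoxc10 at 0.718, 0 and 0.376 CPM in the hom lines, 0.579, 0.156, 1.18 and 0 CPM in the het lines and 0, 1.09 and 1.66 CPM in the WT lines. Hoxc10 values with poly(I:C) were 0.387, 0 and 0.176 CPM in the hom lines, 0.823, 0.923, 1.46 and 0.187 CPM in the het lines and 0.387, 2.37 and 0.445 CPM in the WT lines. Untreated cells had Hoxc10 at 0.242, 0 and 0.513 CPM in the hom lines, 0.908, 0.183, 1.68 and 0 CPM in the het lines and 0, 2.01 and 1.28 CPM in the WT lines. Hom line E2.2 had 0 counts in its 3 libraries, which allows up to 0.193 CPM (3 counts over the line, counting error only), and WT line E2.1 averaged 1.82 CPM.

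Hoxc8 acts at the level of the forelimb and thorax. Levels of Hoxc8 under AO were 1.2, 1.83 and 1.13 CPM in the hom lines, 1.74, 1.56, 6.66 and 0.609 CPM in the het lines and 2.5, 0.954 and 1.15 CPM in the WT lines. After poly(I:C) it was at 2.71, 0.711 and 0.878 CPM in the hom lines, 3.43, 2.31, 9.26 and 0.937 CPM in the het lines and 2.97, 0.592 and 2.22 CPM in the WT lines. Levels of Hoxc8 without treatment were 2.17, 2.43 and 2.18 CPM in the hom lines, 3.63, 2.92, 11.5 and 1.32 CPM in the het lines and 2.43, 1.58 and 1.49 CPM in the WT lines. Het line E2.6 was far above the other 9 lines, which overlapped across genotypes.

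Hoxc6 acts near the same level. Under AO, Hoxc6 was at 3.35, 1.57 and 0.94 CPM in the hom lines, 0.927, 1.09, 4.15 and 0.913 CPM in the het lines and 3.46, 0.749 and 1.27 CPM in the WT lines. Hoxc6 with poly(I:C) was at 1.68, 5.93 and 1.41 CPM in the hom lines, 4.25, 2.31, 8.44 and 0.375 CPM in the het lines and 4.13, 2.57 and 3.11 CPM in the WT lines. Without treatment, Hoxc6 was at 3.14, 3.58 and 1.67 CPM in the hom lines, 3.94, 1.1, 10.1 and 1.19 CPM in the het lines and 2.92, 2.01 and 3.84 CPM in the WT lines. E2.6 was again the highest by its line mean, with 7.56 ± 3.07 CPM. Hom E2.2 and WT E1.5 followed with 3.69 ± 2.18 and 3.5 ± 0.609 CPM (SD, n = 3 libraries each, 1 per treatment).

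Hoxc4 is a gene of the neck region. Hoxc4 under AO measured 0.718, 0.262 and 0.188 CPM in the hom lines, 0.811, 0.156, 1.92 and 0.152 CPM in the het lines and 0.384, 0.273 and 0.764 CPM in the WT lines. Its poly(I:C) values were 0.773, 0.474 and 0.351 CPM in the hom lines, 1.1, 0.346, 3.57 and 0.562 CPM in the het lines and 0.646, 0.79 and 0.89 CPM in the WT lines. Hoxc4 without treatment measured 1.45, 1.02 and 0.257 CPM in the hom lines, 2.12, 0.548, 5.88 and 0 CPM in the het lines and 1.78, 0.718 and 1.71 CPM in the WT lines. E2.6 was the highest line and the genotypes overlapped.

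Hoxb8 acts in the trunk and in blood and microglial precursors. AO-treated cells had Hoxb8 at 6.22, 1.05 and 1.13 CPM in the hom lines, 3.01, 1.56, 1.78 and 0.152 CPM in the het lines and 3.65, 1.02 and 0.891 CPM in the WT lines. Hoxb8 values with poly(I:C) were 5.93, 0.474 and 0.351 CPM in the hom lines, 4.11, 2.88, 4.71 and 0.562 CPM in the het lines and 4.13, 0.987 and 1.78 CPM in the WT lines. Untreated cells had Hoxb8 at 7.73, 1.15 and 1.41 CPM in the hom lines, 4.24, 1.64, 3.24 and 0.132 CPM in the het lines and 4.05, 1.005 and 1.28 CPM in the WT lines. By line means hom E1.4 was highest and het E2.8 lowest.

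Hoxb6 is expressed in lateral plate mesoderm. Levels of Hoxb6 under AO were 6.7, 1.57 and 0.188 CPM in the hom lines, 3.48, 2.03, 2.66 and 0.609 CPM in the het lines and 3.84, 0.613 and 2.04 CPM in the WT lines. After poly(I:C) it was at 5.93, 1.42 and 0.878 CPM in the hom lines, 7.13, 4.73, 4.55 and 0.937 CPM in the het lines and 4.26, 1.97 and 3.11 CPM in the WT lines. Levels of Hoxb6 without treatment were 8.7, 1.54 and 1.67 CPM in the hom lines, 5.3, 3.29, 5.4 and 0.924 CPM in the het lines and 3.73, 1.15 and 1.71 CPM in the WT lines. E1.4 and E1.3 were the highest by their line means, and E2.8 and E2.9 the lowest.

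Hoxa7 is a gene of the trunk. Under AO, Hoxa7 was at 6.46, 8.12 and 1.13 CPM in the hom lines, 5.79, 2.96, 3.85 and 2.43 CPM in the het lines and 7.49, 2.38 and 2.8 CPM in the WT lines. Hoxa7 with poly(I:C) was at 5.41, 13.3 and 1.58 CPM in the hom lines, 10.6, 3.34, 6.66 and 3.94 CPM in the het lines and 10.3, 3.75 and 5.56 CPM in the WT lines. Without treatment, Hoxa7 was at 7.13, 11.5 and 2.44 CPM in the hom lines, 11.4, 5.12, 6.72 and 4.75 CPM in the het lines and 13, 6.03 and 4.9 CPM in the WT lines. Hom E2.2, WT E1.5 and het E1.3 had line means of 11 ± 2.62, 10.3 ± 2.74 and 9.24 ± 3.01 CPM (SD, n = 3 libraries, 1 per treatment). Their libraries overlapped.

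Hoxa5 acts in the lung and at the neck-to-thorax boundary. Hoxa5 under AO measured 7.66, 1.57 and 0.188 CPM in the hom lines, 3.71, 2.03, 1.92 and 1.07 CPM in the het lines and 4.03, 0.886 and 1.02 CPM in the WT lines. Its poly(I:C) values were 11.2, 1.9 and 1.41 CPM in the hom lines, 11, 2.54, 4.87 and 1.12 CPM in the het lines and 9.17, 0.592 and 2.002 CPM in the WT lines. Hoxa5 without treatment measured 14.1, 3.97 and 0.898 CPM in the hom lines, 8.17, 3.84, 4.8 and 1.58 CPM in the het lines and 6.81, 2.15 and 2.13 CPM in the WT lines. E1.4, E1.3 and E1.5 had the 3 highest line means.

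Hoxb3 is a gene of the hindbrain and pharyngeal region. AO-treated cells had Hoxb3 at 6.22, 1.57 and 0.752 CPM in the hom lines, 8.69, 4.05, 8.74 and 1.67 CPM in the het lines and 5.57, 1.98 and 1.91 CPM in the WT lines. Hoxb3 values with poly(I:C) were 16.4, 1.9 and 0 CPM in the hom lines, 10.4, 6.92, 7.96 and 1.5 CPM in the het lines and 6.72, 2.57 and 2.45 CPM in the WT lines. Untreated cells had Hoxb3 at 17, 2.3 and 2.57 CPM in the hom lines, 12.3, 5.3, 8.28 and 1.45 CPM in the het lines and 8.91, 3.01 and 2.13 CPM in the WT lines. Hom E1.4 had the highest line mean and hom E2.9 the lowest.

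Hoxb2, which patterns the hindbrain, had the widest range between line means of the tested genes other than Hoxc10. Levels of Hoxb2 under AO were 27.8, 0 and 0.752 CPM in the hom lines, 6.02, 4.52, 6.37 and 0.457 CPM in the het lines and 3.46, 2.32 and 1.78 CPM in the WT lines. After poly(I:C) it was at 13.5, 0.948 and 0.703 CPM in the hom lines, 6.58, 10.03, 4.38 and 0 CPM in the het lines and 4.65, 2.76 and 5.34 CPM in the WT lines. Levels of Hoxb2 without treatment were 21.9, 1.54 and 0.77 CPM in the hom lines, 5.9, 4.02, 5.4 and 0.66 CPM in the het lines and 2.43, 1.005 and 2.13 CPM in the WT lines. Line means ran from 0.372 CPM in het E2.8 to 21.1 CPM in hom E1.4, a 56.6-fold range.

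Hoxa2 sets the identity of the second branchial arch and acts in the hindbrain. Under AO, Hoxa2 was at 3.59, 0.524 and 0.188 CPM in the hom lines, 1.39, 0, 1.04 and 0.761 CPM in the het lines and 0.768, 0.477 and 0.382 CPM in the WT lines. Hoxa2 with poly(I:C) was at 9.54, 1.42 and 0 CPM in the hom lines, 4.94, 0.577, 2.27 and 0.75 CPM in the het lines and 3.87, 0.197 and 0.89 CPM in the WT lines. Without treatment, Hoxa2 was at 7.49, 0.512 and 0.898 CPM in the hom lines, 3.48, 1.1, 1.2 and 0.264 CPM in the het lines and 2.27, 0.287 and 0.853 CPM in the WT lines. The 3 E1 lines had the highest line means, and they are 1 of each genotype.

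Further tested genes are given by their range. From the lowest to the highest line mean, Hoxa3, a pharyngeal gene, ran over 0.214 (line E2.9) to 8.24 CPM (line E1.4), and Hoxa4, a gene of the neck, over 0.335 (line E2.9) to 5.47 CPM (line E1.4). In cluster B, Hoxb4 ran over 0.71 (line E2.9) to 7.81 CPM (line E1.4), Hoxb5 over 0.125 (line E2.8) to 2.52 CPM (line E1.4) and Hoxb7 over 0.495 (line E2.9) to 6.17 CPM (line E1.4). Hoxc5 ran over 0.168 (line E2.9) to 3.74 CPM (line E2.6) and Hoxd8 over 2.64 (line E2.9) to 7.06 CPM (line E1.4), the narrowest range in fold.

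In each of the 29 Hox genes that could be tested, lines differed within at least 1 genotype. With all 30 libraries in 1 edgeR quasi-likelihood fit with a term for each genotype and treatment and lines nested in genotype, 29 of 39 Hox genes had enough counts to be tested. The other 10 genes were Hoxa6, Hoxb1, Hoxb13, Hoxc9, Hoxc11, Hoxc12, Hoxc13, Hoxd1, Hoxd3 and Hoxd4, whose highest library values ran from 0.239 CPM (Hoxb1) to 2.88 CPM (Hoxc9). A gene passed where its p, adjusted by the method of Benjamini and Hochberg over all genes tested, was under 0.05. All 29 passed, where 54.5% of the 13364 genes tested passed. The lines of all genotypes were tested together, so a pass does not show in which genotype they differed. The smallest adjusted p was that of Hoxd13 (2.41e-12), followed by Hoxb9 (1.32e-10), Hoxb8 (1.03e-08) and Hoxa9 (1.13e-08), and the largest was that of Hoxd8 (0.00227). The highest line mean was 2.67 to 56.6 times the lowest over the tested genes other than Hoxc10, with a median of 11.5-fold. Het line E1.3 and WT line E1.5 were the most alike pair, with a median absolute log2 difference of 0.224 over the 29 genes. Pairs of the same genotype differed by 0.447 to 1.57 (median 0.914, 12 pairs) and pairs of different genotypes by 0.224 to 2.12 (median 0.978, 33 pairs). These distances compare line means over 3 libraries. Single libraries of 1 line, each under another treatment, differed by 0.412 to 0.589, which cannot be set against the distances between line means.

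Genes of the limb, the trunk and the head were also called between lines. In the same test, where 54.5% of all genes passed, 23 of 24 limb genes, 17 of 17 trunk genes and 15 of 15 cranial mesenchyme genes passed. Of the retinoic acid pathway 12 of 17 genes passed, and 6 of 11 TALE cofactors and 18 of 32 chromatin regulators were near the share of all genes. The TALE list holds Tgif1 and Tgif2 beside the Pbx, Meis and Pknox genes. Tbx5, which marks the forelimb, averaged 15.8 CPM in hom E2.2 and 10.0002 CPM in WT E1.5, and 1.99 CPM in hom E1.4. Tbx4, which marks the hindlimb, averaged 4.22 CPM in het E1.3 and 3.35 CPM in WT E2.7, and 0.117 CPM in hom E2.9. Pitx1, the hindlimb selector, was at 0.0859 CPM in E1.4 and 3.6 CPM in E2.7. Prrx1, a gene of limb mesenchyme, was at 93.3 CPM in E1.4, against 321 to 571 CPM in the 7 E2 lines. Untreated, with poly(I:C) and under AO it was at 209, 200 and 121 CPM in E1.3. In the same order it was at 227, 217 and 134 CPM in E1.5, so these lines too lay below the E2 line means. Over 10 lines, no relation was detected of Hoxc10 with Tbx4 (Pearson r = 0.406, permutation p = 0.236; Spearman rho = 0.394, permutation p = 0.262; adjusted p = 0.393) or with Pitx1 (r = 0.361, permutation p = 0.322; rho = 0.503, permutation p = 0.142; adjusted p = 0.403). None was detected of Hoxc5 with Tbx5 (r = -0.152, permutation p = 0.674; rho = -0.0545, permutation p = 0.892; adjusted p = 0.674). Each p is two-sided and 5 relations were set up. Without the 2 lines farthest from the median of the Hox gene, r was 0.524, 0.285 and -0.261 in the same order, and within the 7 E2 lines it was 0.609, 0.546 and -0.190. For Hoxa13 with Hoxd13 and Hoxa11 with Hoxd11 the lines fell into separate groups of 3, 5 and 2 lines, each too small for a test, so no correlation is given.

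No Hox gene passed between Tbk1 genotypes. The question was whether N129D goes with another level of these genes, and the counts of each line were first summed over its 3 libraries, with genotype and the E1 or E2 prefix in the fit. In hom against WT lines 0 of 31 Hox genes passed by edgeR, where 0% of 14289 genes passed, with 1 at an unadjusted p under 0.05 and 0 by DESeq2. That gene was Hoxa13, at a log2 difference of -1.71 ± 0.56 (SE, 3 against 3 lines; adjusted p = 0.848). Hoxd13 differed by -1.5 ± 0.72 (adjusted p = 0.848), so that its non-overlapping hom and WT lines were not separated by this test. For hom and WT lines that did not overlap in Hoxd13, Hoxa13 or Hoxd12, no share of all genes is given. The median over the 31 genes was 0.10, against 0.02 over all genes. In het against WT lines 0 of 31 passed, where 0% of all genes passed, with 0 at an unadjusted p under 0.05 and 0 by DESeq2. Hoxd13 differed there by -0.16 ± 0.64 (adjusted p = 1), and the median over the Hox genes was 0.37, against 0.01 over all genes.

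Within each treatment the outcome was alike. In hom against WT cells, edgeR passed 0 of 29 Hox genes without treatment (0.015% of all genes passed), 0 under poly(I:C) (0.254%) and 0 under AO (0%), with 1, 3 and 1 at an unadjusted p under 0.05, and DESeq2 passed 0 in each. The 3 under poly(I:C) were Hoxd13 at -2.21 ± 0.81, Hoxa13 at -1.98 ± 0.9 and Hoxd12 at -2.87 ± 1.25 (log2, SE), with adjusted p of 0.668, 1 and 1 by edgeR. In het against WT cells 0 of 29 passed under any treatment, where 0% of all genes passed, and none had an unadjusted p under 0.05. The responses of hom and WT cells to AO and to poly(I:C) also did not differ for any Hox gene past the threshold (0 of 29 for each by edgeR, where 0% of all genes passed, and 0 at an unadjusted p under 0.05, with 0 by DESeq2). With the line as a block 3 of the poly(I:C) differences had an unadjusted p under 0.05 and 0 passed. Hom line E2.9, which carried macrophage transcripts as given above, had the lowest line mean of the 10 lines for 16 of the 29 tested Hox genes. Without E2.9 the count stayed at 0 in every genotype comparison.

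Hoxa2 was higher in the 3 E1 lines than in the 7 E2 lines and was the 1 Hox gene of 31 to pass. The E1 lines hold 1 line of each genotype, which lets the prefix be compared with genotype in the fit. Hoxa2 averaged 6.87, 3.27 and 2.3 CPM in lines E1.4, E1.3 and E1.5, against 0.321 to 1.5 CPM with a median of 0.591 in the E2 lines, and these did not overlap. It was higher by a log2 difference of 2.63 ± 0.43 (SE, adjusted p = 0.0444 by edgeR), where 0.511% of 14289 genes passed and 0.112% passed as higher and 0.399% as lower in E1. Hoxa4 averaged 5.47, 2.35 and 1.96 CPM in the same E1 lines, against 0.335 to 0.895 CPM with a median of 0.66 in the E2 lines. Its log2 difference was 2.28 ± 0.41 (adjusted p = 0.0543), and that of Hoxa5 was 2.17 ± 0.42 (adjusted p = 0.0647), neither past the threshold by edgeR. The median log2 difference was 2.03 over the 5 tested genes of groups 1 to 3, 1.21 over the 14 of groups 4 to 8 and 0.75 over the 12 of groups 9 to 13, against 0.00 over all genes. By cluster it was 1.78 for B, 1.14 for A, 0.67 for D and 0.21 for C. DESeq2 passed 7 genes, all higher in E1: Hoxa2, Hoxa3, Hoxa4, Hoxa5, Hoxb3, Hoxb8 and Hoxb9. Leaving out any one of the 3 E1 lines, or E2.1, E2.2, E2.7, E2.8 or E2.9, left 0 genes past the threshold, and leaving out E2.6 left 3.

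Several genes of the head mesenchyme were lower in the E1 lines. Of 16 tested cranial mesenchyme genes 5 were lower in E1 and 0 higher, where 0.399% of all genes passed as lower. Lhx8, a jaw and tooth mesenchyme gene, averaged 0, 0.0914 and 0.054 CPM in the E1 lines, against 3.39 to 18.5 CPM with a median of 10.3 in the E2 lines, a log2 difference of -7.39 ± 0.83 (adjusted p = 0.0249 by edgeR). Alx1, which shapes the face, averaged 0.656, 0.956 and 4.92 CPM in the E1 lines, against 9.84 to 32.9 CPM with a median of 18.3 in the E2 lines, a log2 difference of -3.53 ± 0.54 (adjusted p = 0.0392). Six2 differed by -1.65 ± 0.17 and Dlx1 by -1.61 ± 0.22 on the log2 scale. Of 24 limb genes Tfap2b fell in E1 (-2.38 ± 0.4), and of 18 trunk genes Pax3 fell (-2.62 ± 0.44) and Foxc2, a gene of the somites, rose (1.2 ± 0.18). Of the 11 TALE cofactors, 32 chromatin regulators and 17 retinoic acid genes 0 passed. Among 10 fibroblast markers Pdgfra was lower in E1 (-1.96 ± 0.31), and the part of cell make-up in these differences was not tested.

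AO lowered Hoxa10, Hoxd12 and Hoxa13 in the fit without the line as a block. This was a smaller share of the tested Hox genes than the share of all genes that fell. Averaged over the 3 genotypes, edgeR passed 3 of 29 Hox genes, all lower, where 33.7% of the 13364 genes passed and 16.7% passed as lower. Hoxa10 ran from 1.32 to 10.1 CPM with a median of 3.81 over the 10 lines under AO, against 3.46 to 23.6 CPM with a median of 12.2 without treatment. It was lower in 10 of 10 lines, at a log2 fold of -1.27 ± 0.41 (SE, adjusted p = 0.0183). Hoxd12 ran from 0 to 3.13 CPM with a median of 0.49 under AO, against 0.483 to 10.05 CPM with a median of 2.56 without treatment, and fell in 10 of 10 lines (-1.97 ± 0.67, adjusted p = 0.0255). Hoxa13 ran from 0 to 7.18 CPM with a median of 1.23 under AO, against 1.03 to 14.7 CPM with a median of 3.07 without treatment, and fell in 10 of 10 lines (-1.52 ± 0.54, adjusted p = 0.0304). For each of the 3 the ranges under AO and without treatment overlapped. Leaving out WT line E1.5 or WT line E2.1 left Hoxa10 alone past the threshold.

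Fitted with the line as a replicate block, which sets each line against itself, 21 of 29 Hox genes passed under AO, 20 lower and Hoxb9 higher, where 50.4% of all genes passed, 26.8% as lower and 23.6% as higher. The largest falls were those of Hoxd12 (-2.0 ± 0.27, adjusted p = 4.21e-06), Hoxc5 (-1.53 ± 0.4, adjusted p = 0.00298), Hoxa13 (-1.46 ± 0.27, adjusted p = 0.000157) and Hoxc4 (-1.34 ± 0.3, adjusted p = 0.000911). Hoxa10 had the smallest p (-1.28 ± 0.13, adjusted p = 8.66e-08), followed by Hoxd12 and Hoxa11 (-0.93 ± 0.13, adjusted p = 5.8e-06). Hoxd13, the most abundant, fell by much less (-0.24 ± 0.08, adjusted p = 0.0148). Hoxb9 ran from 7.85 to 38.5 CPM with a median of 14.1 under AO, against 3.2 to 36.2 CPM with a median of 8.56 without treatment, and rose in 8 of 10 lines (0.49 ± 0.11, adjusted p = 0.000819). The 8 that did not pass in the block fit were Hoxa2, Hoxa4, Hoxb2, Hoxb7, Hoxb8, Hoxc10, Hoxd8 and Hoxd9. The median log2 fold over the 29 genes was -0.77, against -0.02 over all genes, and 27 of 29 folds were negative. By cluster, the block fit passed 8 of 10 genes of A, 4 lower and 1 higher of 8 of B, 4 of 5 of C and 4 of 6 of D. Within a genotype it passed 7 lower genes in hom cells (29.7% of all genes passed, 15% as lower), 15 lower and Hoxb9 higher in het cells (27.5%, 14.6% as lower and 12.9% as higher) and 9 lower in WT cells (22.9%, 11.7% as lower), and without the block 0 passed in each, where 13.1%, 11.1% and 7.66% of all genes passed, with 0, 1 and 0 at an unadjusted p under 0.05 and 0 by DESeq2 (hom, het, WT).

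**Figure D3:**
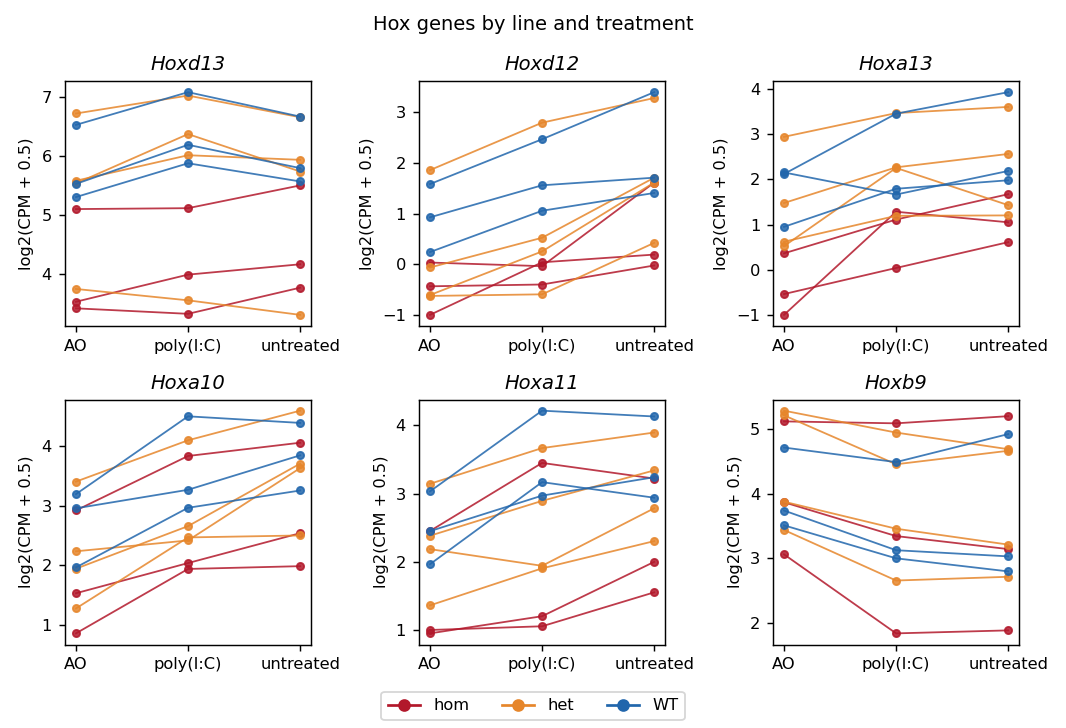
Hoxd13, Hoxd12, Hoxa13, Hoxa10, Hoxa11 and Hoxb9 as log2(CPM + 0.5) in the 10 lines under AO, poly(I:C) and without treatment, with 1 line of points per cell line coloured by genotype. Hoxa10, Hoxa11, Hoxa13 and Hoxd12 are lower under AO in 10 of 10 lines, and Hoxb9 is higher in 8 of 10.

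The summed Hox level under AO was 0.651 to 0.803 times that of the same line without treatment, with a median of 0.730, and was lower in 10 of 10 lines. Markers of other kinds changed in the same libraries. In each list the leading gene is that with the smallest p. Of 7 proliferation markers 5 fell, led by Plk1 (-0.83 ± 0.07), and their summed level was 1804 to 2168 CPM under AO, against 2300 to 2702 CPM without treatment. Of 10 fibroblast markers 4 fell, led by Col3a1 (-1.09 ± 0.21), with a summed level of 8259 to 12722 CPM under AO, against 10729 to 14077 CPM without treatment. Of 5 neural markers Tubb3 (-1.11 ± 0.21) and Nes (-0.72 ± 0.17) fell, of 7 smooth muscle markers Lmod1 fell (-1.65 ± 0.63), and of 2 endothelial markers Kdr rose (1.45 ± 0.3). Of 10 macrophage, 6 chondrocyte and 4 epithelial markers 0 passed. The part of any of these in the Hox changes was not tested.

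**Figure D4:**
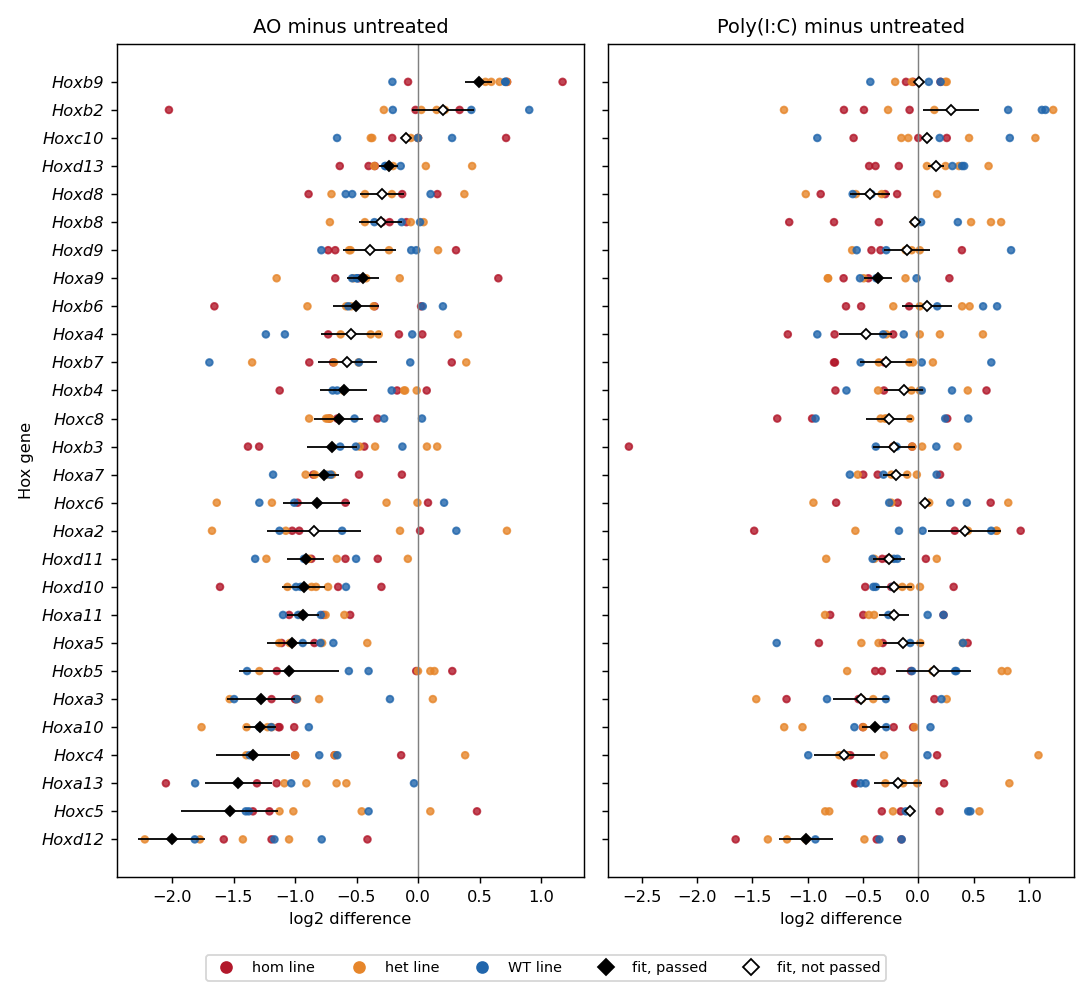
Log2 difference from the untreated library of the same line, of log2(CPM + 0.5), for 28 tested Hox genes under AO (left) and poly(I:C) (right), 1 point per line. Diamonds give the fold and SE of the fit with the line as a block, filled where it passed, with no bar where the unadjusted p was above 0.8; under AO 19 filled diamonds lie left of 0 and that of Hoxb9 right of it.

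Partners and regulators of Hox proteins passed in both directions under AO, in a comparison where 17% of all genes passed as higher and 16.7% as lower. Of 11 TALE cofactors 2 rose and 4 fell by edgeR. Meis1, a cofactor of the 5' Hox proteins, ran from 7.07 to 12.7 CPM with a median of 9.34 under AO, against 16.1 to 43 CPM with a median of 20.9 without treatment (-1.18 ± 0.19, adjusted p = 2.85e-05). Meis2 (-0.66 ± 0.11) and Pbx2 (-0.67 ± 0.13) fell too. Tgif1, a TALE repressor, ran from 77.4 to 141 CPM with a median of 128 under AO, against 53.4 to 89.3 CPM with a median of 62.6 without treatment (0.9 ± 0.12, adjusted p = 3.75e-06). Of 32 chromatin regulators 8 rose and 5 fell, and the number that fell is near the share of all genes. Jarid2, a partner of Polycomb complex 2, fell (-1.28 ± 0.14, adjusted p = 1.35e-07), as did the Polycomb subunit Cbx2 (-1.18 ± 0.18, adjusted p = 1.27e-05). The histone methyltransferase Dot1l (0.62 ± 0.09) and the H3K27 demethylase Kdm6b (0.83 ± 0.14) rose. Of 17 retinoic acid genes 3 fell, again near that share, led by the retinaldehyde reductase Dhrs3 (-1.8 ± 0.35). Of 24 limb genes 2 fell, Irx3 and Meox2, and with the line as a block 14 fell and 1 rose, where 26.8% of all genes passed as lower and 23.6% as higher. Gdf11, which helps to set the trunk-to-tail boundary, fell (-0.69 ± 0.13), as did Evx2, the homeobox gene beside Hoxd13 (-1.5 ± 0.53, adjusted p = 0.0306). Of 17 trunk genes 3 fell, and of 15 cranial mesenchyme genes 3 fell, both near the share of all genes.

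No Hox gene passed for poly(I:C) without the line as a block. Averaged over the genotypes, 0 of 29 passed by edgeR, where 21.7% of all genes passed, with 0 at an unadjusted p under 0.05 and 0 by DESeq2. The median log2 fold was -0.14, and the summed Hox level was 0.748 to 1.16 times that of the untreated library of the same line, lower in 5 of 10 lines. With the line as a block 3 fell, where 39.4% of all genes passed and 19.6% passed as lower and 19.8% as higher. Hoxd12 ran from 0.162 to 6.45 CPM with a median of 0.815 with poly(I:C), against 0.483 to 10.05 CPM with a median of 2.56 without treatment, and was lower in 10 of 10 lines (-1.02 ± 0.24, adjusted p = 0.00238). Hoxa10 changed by -0.39 ± 0.12 (adjusted p = 0.0138) and Hoxa9 by -0.36 ± 0.13 (adjusted p = 0.0289) on the log2 scale, each lower in 9 of 10 lines. Within a genotype the block fit passed 0 genes in hom cells (9.79% of all genes passed, 3 Hox genes at an unadjusted p under 0.05), 3 in het cells (17.8%, of which 8.81% as higher and 8.97% as lower) and 1 in WT cells (15.7%, of which 7.53% as higher and 8.19% as lower). Without the block 0 passed in hom, het and WT cells, where 1.28%, 4.67% and 3.2% of all genes passed, with 0 at an unadjusted p under 0.05 in each and 0 by DESeq2. Hoxd13 rose in het cells (0.37 ± 0.11, adjusted p = 0.0303) and in WT cells (0.42 ± 0.13, adjusted p = 0.0322), with -0.3 ± 0.15 in hom cells (adjusted p = 0.214). The hom minus WT difference of this response, -0.72 ± 0.2, had an adjusted p of 0.703 in the block fit. Of the 11 genes in the TALE list, Pbx2 (-0.68 ± 0.13) and Tgif2 (-0.38 ± 0.11) fell in the fit without the block. There 11.8% of all genes passed as lower and 9.91% as higher. Of 32 chromatin regulators 9 fell, led by the Polycomb gene Pcgf2 (-0.68 ± 0.1), and 1 rose. Foxf1 was the single trunk gene to pass (1.01 ± 0.28), and 0 limb, cranial and retinoic acid genes passed.

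Cell density in WT line E1.5 left the Hox genes below the threshold. The 9 libraries of this line entered 1 fit of treatment plus density, so the test rests on 1 library per density and treatment and on 1 line. Of 25 Hox genes tested 0 passed by edgeR between high and low density, where 17% of 12229 genes passed, with 3 at an unadjusted p under 0.05 and 0 by DESeq2. Hoxd13 was at 94, 159 and 116 CPM at high density, against 91.6, 123 and 97.9 CPM at low density (in the order AO, poly(I:C), untreated), and was higher at high density in each treatment (0.18 ± 0.07, adjusted p = 0.0985). Hoxa5 was at 3.26, 12 and 9.02 CPM at high density, against 1.97, 6.82 and 7.36 CPM at low density in the same order (0.52 ± 0.2, adjusted p = 0.105). Folds were positive for 21 of 25 genes, with a median of 0.15, against 0.01 over all genes. Without the AO libraries Hoxd13 passed as higher. In the same fit 7 of 16 retinoic acid genes rose at high density and 0 fell, where 8.62% of all genes passed as higher and 8.41% as lower, among them the retinoic acid receptor Rarb (1.78 ± 0.17, adjusted p = 2.34e-05), the binding protein Crabp2 (1.06 ± 0.1) and Dhrs3 (3.11 ± 0.31). Of the chromatin regulators 3 of 32 rose, among them Cbx7 (1.51 ± 0.38) and Ezh1 (0.43 ± 0.13), and of the TALE cofactors Pknox2 rose (0.39 ± 0.12). Of 18 limb genes 2 rose and 3 fell, led by Lhx9 (-0.67 ± 0.11). Among markers, 4 of 4 tested smooth muscle genes fell, and of 9 fibroblast genes 5 rose, led by Col3a1 (1.55 ± 0.1), and 2 fell. Library totals differed between densities as given above. The part of either in the Hox values was not tested.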

How the data were processed

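The values deposited by the authors are expected counts per gene (estimates, often fractional), 1 table per library. STAR, RSEM and mm10 are named without versions, per the submitters' processing notes, and the kit was TruSeq Stranded mRNA, per the labels' protocols. RSEM divides reads between genes they match equally well. Expected counts were rounded to whole numbers, which changed 6.01% to 13.3% of a library's values. Gene names came from GENCODE vM21, which matched 49326 of 49585 genes.

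Groups came from the titles. edgeR 4.0.16 (R 4.3.3) with TMM factors, filterByExpr (at least 10 counts, total at least 15) and a term for each genotype-treatment group fitted 30 libraries together over 13364 genes. The SE is the log2 fold divided by the t quantile of its p. Line sums were fitted over 14289 genes and the density libraries over 12229. The 3 libraries of a line share a line name, so the numbers pair them; their deviations from group means correlated by 0.342 to 0.765 over 30 pairs. P-values of the fit without the block treat these libraries as independent. The labels name separate lines, not separate embryos, so the spread between samples may in part be technical. Relations used log2(CPM + 0.5) and 100000 resamples.

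The members, the gene lists and the tests were chosen with earlier results of these data known. Alternatives were the replicate block, RLE factors, DESeq2 1.42.0, no low-count filter, the compared groups alone, voom with a random line effect in limma 3.58.1, the prefix fit with no genotype and leaving out each line; the block fit without each line was chosen after seeing the data. Values were given for the 2 most abundant genes per cluster, up to 8 genes that passed per comparison, the 8 tested genes of groups 9 to 13 with the widest range of line means and genes at 0 in some lines and above 1 CPM in others, and up to 4 members of each other list with the smallest p. Other genes named for their level by line were chosen after their values were seen. Some genes are not reported here by name. Simulated counts with known changes were used to try the tests. Promoter letters were read from RefSeq tables; Python 3.11.15 did the summaries.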

Additional observations from a re-analysis of the deposited data

Results flagged for a closer look

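In the het group 4 of 57 checked sets of values, over 19 Hox genes, held 1 line far from the other 3, by Dixon's ratio of gap to range (above Dixon's 95% critical value); chance gives about 1 in 20. Hoxa10 under poly(I:C) had a ratio of 0.918, with 16.6 CPM in E1.3, against 4.84, 5.03 and 5.81 CPM in the other het lines. Hoxd12 in E1.3 stood apart under AO, with a ratio of 0.896 and 3.13 CPM, against 0.148, 0.156 and 0.457 CPM. It also did so under poly(I:C), with a ratio of 0.877 and 6.45 CPM, against 0.162, 0.692 and 0.937 CPM. Hoxc6 under AO had a ratio of 0.945, with 4.15 CPM in E2.6, against 0.913, 0.927 and 1.09 CPM in the other het lines. E2.6 is also the het line with macrophage transcripts, whose part in this value was not tested.

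The poly(I:C) response of 2 genes ran in opposite directions in every hom and every WT line. No share of all genes with such a split is given, so the 2 cannot be set against it. Hoxb6 rested on few counts in places: 12 untreated and 6 with poly(I:C) in E2.2, 13 and 5 in E2.9, 8 and 10 in E2.1. Hoxb6 changed by a mean of -0.417 in the hom lines and 0.490 in the WT lines on the log2(CPM + 0.5) scale, a difference of -0.908. Hoxd13 changed by -0.335 in the hom lines and 0.373 in the WT lines, a difference of -0.709. In the edgeR fit across all genes, the difference was -1.03 ± 1.32 for Hoxb6 (adjusted p = 1) and -0.77 ± 1.1 for Hoxd13 (adjusted p = 1). With the line as a block it was -1.09 ± 0.48 (adjusted p = 0.805) and -0.72 ± 0.2 (adjusted p = 0.703), so neither passed.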

How the results depend on the processing

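With the line as a replicate block, the count of Hox genes past the threshold was 21 for the mean AO response, 7 for AO in hom, 16 for AO in het and 9 for AO in WT cells, and 3 for the mean poly(I:C) response, 3 for poly(I:C) in het and 1 for poly(I:C) in WT cells; no other count changed with it. Leaving out each line in that fit gave 19 to 23 genes for AO and 2 to 4 for poly(I:C). DESeq2 passed 5 genes for the mean AO response and 7 for E1 against E2 lines. The E1 comparison gave 6 genes with no filter on low counts and 4 with no genotype in the fit. Leaving out each line without the block gave 1 to 4 genes for the mean AO response and 0 to 3 for E1 against E2 lines, and leaving out each treatment gave 0 to 1 for density. No Hox gene that passed for the mean AO response, the mean poly(I:C) response or E1 against E2 lines changed sign under the alternatives run; some folds that did not pass within hom cells changed sign with the block. The causes of these shifts were not tested. Genotype comparisons kept a count of 0 under every alternative run. Scaling to the library total in place of TMM moved no line mean by more than 0.067 on the log2 scale. Depth limits the 10 Hox genes that were not tested and all values of a few counts; intervals and floors cover counting error only.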
